A study of Mus musculus with 2 samples.

Results

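Histones are modified, read and moved by a limited set of enzyme families, and 8 of these families were examined here in the liver RNA of HFD-fed mice. Members were all gene symbols that began with Kmt, Setd or Prmt (methyltransferases, the writers), Kdm or Hdac (demethylases and deacetylases, the erasers), Brd (bromodomain proteins, the readers), and Chd or Smarc (ATP-driven remodelers and their subunits), followed by a number or a letter of the family. The rule used names only and no measured value. It found 89 of the 45777 gene symbols in the table, which were 26 writers, 29 erasers, 7 readers, 23 remodelers and 4 entries that are pseudogenes, an opposite-strand transcript or a like-named gene (*Brd3os*, *Kdm4dl*, *Smarca5-ps* and *Smarce1-ps1*).

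RNA came from livers of C57BL/6 mice that began a high-fat diet (HFD) at 7 weeks of age and stayed on it for 18 weeks, a diet model of metabolic dysfunction-associated steatotic liver disease (MASLD). At week 13 of the diet, 5 weeks before the end, an adeno-associated virus (AAV, serotype 9) was given through the retro-orbital sinus. It carried either GFP (AAV-GFP, the control) or the long noncoding RNA *Wee1-AS* (AAV-*Wee1-AS*), which is transcribed antisense to the gene of the kinase WEE1. Both groups therefore shared the diet and a viral vector. The vector has a CMV promoter and is not restricted to hepatocytes, and the sources used here do not state the sex of these mice or whether livers were pooled. The comparison asks how the hepatic transcript profile differs when *Wee1-AS* is overexpressed. One library per group was analysed, although the series' design text counts 4 liver samples. No spread between mice could be estimated, no test was made, and every interval in the text covers counting error only.

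Writers attach methyl groups to lysines or arginines of histone tails, erasers take off methyl or acetyl groups, and readers dock on the marks through domains such as the bromodomain, which binds acetylated lysine. Remodelers spend ATP to slide, eject or exchange nucleosomes. In hepatocytes these proteins set which metabolic genes can be reached by nuclear receptors, and the class I deacetylase HDAC3 with its corepressor is a known regulator of hepatic lipid genes.

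The libraries held 55466182 counts with AAV-GFP and 48079335 with AAV-*Wee1-AS*, and the 20 most abundant genes took 24.0% and 24.2% of them. All 8 hepatocyte markers examined passed the count filter, with a summed level of 83466 TPM in the AAV-GFP library and 92722 TPM in the AAV-*Wee1-AS* library. *Alb* alone set this direction, at 37459 and then 53289 TPM. By scaled counts 3 of the 8 were higher with AAV-*Wee1-AS* and 5 lower, among them *Ttr* at 13404 and then 8510 TPM. Summed TPM of other cell markers was 426 and 326 for 7 Kupffer cell genes, 195 and 137 for 8 stellate cell genes, 146 and 116 for 6 sinusoidal endothelial genes, 2037 and 1100 for 3 erythroid genes, and 10.6 and 5.37 for 3 neutrophil genes, of which *Ly6g* was at 0 in both libraries. In the stellate cell list the median log2 ratio (AAV-*Wee1-AS* over AAV-GFP) was −0.84 and 4 of 8 genes had a ratio below 0.5, with the collagen genes *Col1a1*, *Col1a2* and *Col3a1* at −2.32, −2.02 and −2.03, whereas *Lrat* was at 1.46 and *Dcn* at 0.33. After removal of the GC and length trends described below, the list's median was −1.07, with *Lrat* at 0.06 and *Dcn* at −1.24. The collagen genes were then at −2.05, −1.77 and −2.02. In the Kupffer cell list *Marco* and *Vsig4* were at 1.60 and 1.52, and *Cd68* and *Cd5l* at −0.88 and −0.76. With the same trends removed these 4 genes were at 2.19, 0.87, −0.41 and −0.44. The 4 cholangiocyte genes summed to 3.77 and 3.59 TPM, 5 lymphocyte genes to 5.74 and 4.80 TPM, and 4 cycling cell genes to 3.09 and 2.88 TPM. Of the lymphocyte genes 1 was higher, *Ptprc* at 1.13, and 4 were lower. *Ptprc* was at −0.49 with those trends removed. Of the cycling cell genes 2 were higher and 2 lower, from *Ccnb1* at −0.99 to *Mki67* at 1.25, with a median of 0.20. With those trends removed the median was −0.63, *Ccnb1* was at −1.72 and *Mki67* at 0.06. The part of these shifts in the member values was not tested, and in whole liver fewer cells of a type and less RNA per cell cannot be told apart.

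Counts of the chromatin regulators summed to 89463 with AAV-GFP and 89298 with AAV-*Wee1-AS*, which was 0.161% and 0.186% of all counts. On the scale of TPM, which divides by transcript length, the sum over the members past the filter was 696 and 726. *Hdac11* had the highest level per length with AAV-GFP, at 86.8 TPM, followed by *Smarcd2* at 47.8 TPM and *Setd3* at 39.7 TPM. With AAV-*Wee1-AS* the same 3 genes led in another order, with *Setd3* at 50.8 TPM, *Smarcd2* at 48.7 TPM and *Hdac11* at 40.3 TPM.

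Of the 89 members, 83 had at least 10 counts in at least 1 library. *Chd5*, *Kdm4d*, *Kdm4dl* and *Prmt8* had 0 counts in both libraries, which allows up to 0.053 CPM (counts relative to library size) with AAV-GFP and 0.064 with AAV-*Wee1-AS*. *Smarca1*, an ISWI ATPase, had 4 counts and 0 counts, and the pseudogene *Smarca5-ps* had 1 and 4. Values of the 2 libraries are given in the order AAV-GFP and then AAV-*Wee1-AS* throughout. Counts of the members past the filter ranged from 11 to 7268 with a median of 582, and from 17 to 4762 with a median of 718. All genes past the filter had medians of 349 and 367 counts, and the longest transcript had a median of 5168 bases in the members and 3107 in all genes.

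More members were higher than lower in the AAV-*Wee1-AS* library. The log2 ratio (AAV-*Wee1-AS* over AAV-GFP, after scaling of the libraries) was above 0 for 52 of the 83 and below 0 for 31, with a median of 0.46. The median of all 15857 genes past the filter was −0.02. A ratio above 2 was seen in 26 members (31.3%), where 22.2% of all genes passed the same limit. A ratio below 0.5 was seen in 3 members, *Hdac11*, *Prmt2* and *Smarcd3*, against 8.71% of all genes. The counting interval lay wholly above a ratio of 2 for 20 members, against 16.0% of all genes, and wholly below 0.5 for 2 members, against 3.72%. Just inside the upper limit were *Setd5* and *Chd8*, at log2 ratios of 1.05 and 1.06, and just outside it were *Prmt9* and *Smarce1-ps1*, at 0.86 and 0.82. At the lower limit, *Hdac11* at −1.09 and *Smarcd3* at −1.29 lay inside, and *Hdac7* at −0.74 and *Brd3os* at −0.72 outside.

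**Figure D1:**
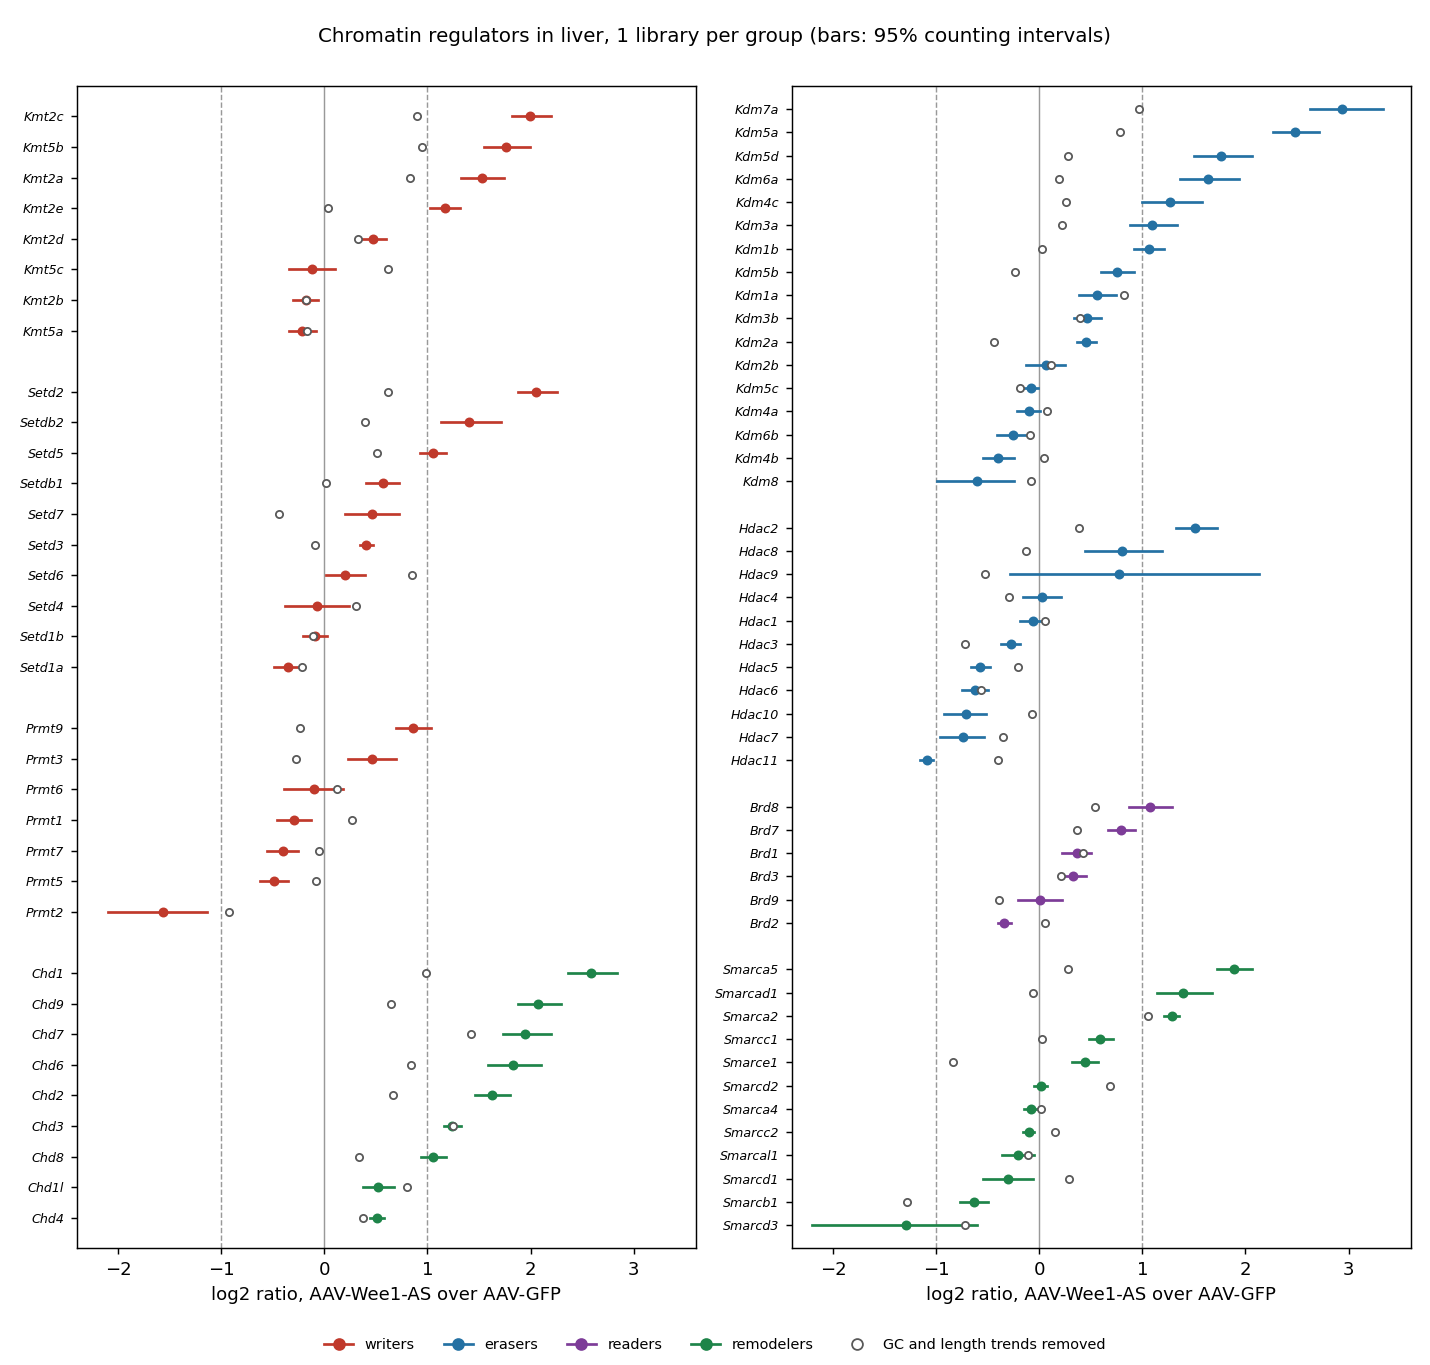
Log2 ratio of AAV-*Wee1-AS* over AAV-GFP for members of the 8 families past the count filter, 1 library per group. Filled points are the ratios with 95% counting intervals as bars, open points the ratios after removal of the GC and length trends, and dashed lines ratios of 0.5 and 2. The filled points of all 9 Chd members lie right of 0, whereas 7 of 11 Hdac members lie left of it.

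These ratios followed the base composition of the transcripts, in the members as in all genes. Across the 83 members, the Spearman coefficient of the log2 ratio was −0.75 with the GC content of the gene's longest GENCODE transcript and 0.50 with its length. Over 14995 genes the same coefficients were −0.67 and 0.35. Genes within 1 library pair are not independent, so these coefficients are descriptions without a p-value. Members with a ratio above 2 had a median GC content of 45.3% and a median transcript length of 7289 bases, those between the limits 52.6% and 4573 bases, and the 3 below 0.5 57.4% and 2653 bases. In the lowest of 10 GC groups, 65.5% of all genes had a ratio above 2, and 3 of its 4 members did. In the highest group, 1.20% of all genes and 0 of 9 members did. Whether the trend arose in the liver or in the making of the libraries cannot be told apart with 1 library per group.

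The log2 ratios of the members described below are therefore also given after the trends with GC content and length over all genes had been removed, and are then called adjusted. The adjusted median of the members was 0.07, with 51 above 0 and 32 below. In 4 members the adjusted ratio was above 2 (*Chd7*, *Chd3*, *Smarca2* and *Smarce1-ps1*), against 6.93% of all genes. Only *Smarcb1* was below 0.5, against 9.0%. The longest transcript of *Smarcb1* is not the one that carried its counts, and with the base composition of its leading transcript its adjusted log2 ratio was 0.00. Of the 26 members with a ratio above 2, 25 kept an adjusted log2 ratio above 0, the exception being *Smarcad1*. With the length trend alone removed, 13 members (15.7%) had a ratio above 2, against 18.4% of all genes.

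**Figure D2:**
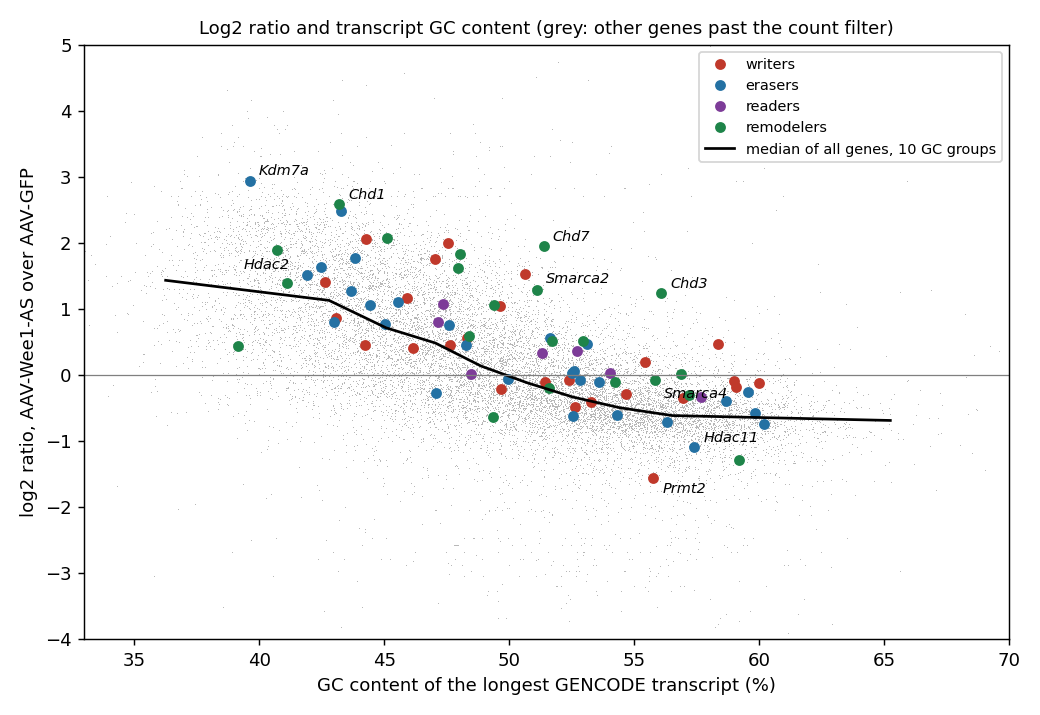
Log2 ratio of AAV-*Wee1-AS* over AAV-GFP (vertical axis) against GC content of the longest transcript in percent (horizontal axis). Coloured points are members by role, grey points all other genes past the filter, and the line joins the medians of 10 GC groups. *Chd3* and *Chd7* lie far above the line at their GC content, and *Prmt2* lies below it.

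Among the writers, 14 of 25 were higher and 11 lower, with a median log2 ratio of 0.41 and an adjusted median of 0.03. A ratio above 2 was seen in 7 (28.0%, against 22.2% of all genes) and a ratio below 0.5 in 1 (4.0%, against 8.71%), and on the adjusted scale 0 passed either limit, against 6.93% and 9.0% of all genes. With the leading transcript in the adjustment, *Kmt5b* at 1.42 passed the upper limit and *Prmt2* at −1.0 the lower. Their summed level was 157 TPM with AAV-GFP and 177 TPM with AAV-*Wee1-AS*.

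The lysine methyltransferases named Kmt were the writers with the highest median, 0.82 and 0.48 adjusted, and 5 of 8 were higher. *Kmt2c* encodes a methyltransferase of histone H3 lysine 4 that works at enhancers. It had 288 counts with AAV-GFP and 964 with AAV-*Wee1-AS*, a log2 ratio of 2.00 with a counting interval of 1.82 to 2.20, and an adjusted value of 0.90. *Kmt5b*, which adds further methyl groups to histone H4 lysine 20, had 227 and 645 counts, a log2 ratio of 1.76 and an adjusted value of 0.95, and on its curated transcripts alone the log2 ratio was 1.02. *Kmt2a*, the MLL1 enzyme, had 281 and 677 counts, with a log2 ratio of 1.52 and 0.83 adjusted. These 3 genes were far apart between the libraries on the raw scale and stayed above 0 by a smaller distance on the adjusted scale. *Kmt2e* had 629 and 1179 counts and a log2 ratio of 1.17, but an adjusted value of 0.03, and it overlaps *Srpk2*, which had 396 and 741 counts. *Kmt5a*, the monomethyltransferase of the same H4 lysine and the Kmt gene with the highest level per length, was lowest, with 1186 and 852 counts, a log2 ratio of −0.21 and an adjusted value of −0.17, or 0.34 with its leading transcript.

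In the Setd family, 7 of 10 were higher, with a median of 0.43 and 0.16 adjusted. *Setd2*, which places trimethylation on H3 lysine 36 along transcribed genes, had 296 and 1032 counts, a log2 ratio of 2.06 (counting interval 1.88 to 2.26) and an adjusted value of 0.62. *Setdb2*, an H3 lysine 9 methyltransferase, had 145 and 323 counts, a log2 ratio of 1.41 and 0.39 adjusted, and it overlaps *Gm45935*, which had 31 and 128 counts. *Setd5* had 778 and 1344 counts and a log2 ratio of 1.05, with 0.51 adjusted. The most abundant Setd gene was *Setd3*, whose product methylates a histidine of actin rather than a histone, with 3554 and 3929 counts and a log2 ratio of 0.41. Its adjusted value was −0.10, or 0.13 with its leading transcript. *Setd1a*, an H3 lysine 4 methyltransferase, was the lowest, with 1087 and 709 counts and a log2 ratio of −0.35, with −0.22 adjusted.

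Of 7 arginine methyltransferases (Prmt) past the filter, 2 were higher and 5 lower, with a median of −0.29 and −0.08 adjusted. When the adjustment used each gene's leading transcript in place of its longest, 4 were higher and 3 lower, with a median of 0.05. *Prmt2* had 175 counts with AAV-GFP and 48 with AAV-*Wee1-AS*, a log2 ratio of −1.57 (interval −2.09 to −1.13) and an adjusted value of −0.93, the lowest ratio of all members past the filter. *Prmt1*, the main asymmetric dimethyltransferase, had 731 and 497 counts and a log2 ratio of −0.29, but its direction turned with the adjustment, to 0.27 with the longest and 0.26 with the leading transcript. Its level per length was the highest of the family at 16.4 and 13.1 TPM. *Prmt5*, the main symmetric dimethyltransferase, had 1233 and 733 counts and a log2 ratio of −0.49, with −0.08 adjusted. *Prmt9* was the highest, with 471 and 714 counts and a log2 ratio of 0.86, and its adjusted value was −0.24 with the longest and 0.49 with the leading transcript.

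Erasers were nearly balanced, with 16 of 28 higher and 12 lower, a median of 0.26 and an adjusted median of −0.03. A ratio above 2 was seen in 8 (28.6%, against 22.2% of all genes) and a ratio below 0.5 in 1 (3.57%, against 8.71%). On the adjusted scale 0 passed either limit, against 6.93% and 9.0% of all genes. Their summed level was 259 TPM and then 216 TPM, and *Hdac11* alone set this direction, since the other 27 summed to 173 TPM and then 176 TPM. Within this role most demethylases were higher and most deacetylases lower, as the plot by family shows. With the length trend alone removed, however, more Kdm genes were lower than higher, so the Kdm direction depended on the adjustment. Among the Kdm genes 12 of 17 were higher, with a median of 0.56 and 0.11 adjusted, whereas 7 of 11 Hdac genes were lower, with a median of −0.28 and −0.29 adjusted. The summed TPM was 65.6 and then 83.9 for the Kdm genes and 194 and then 133 for the Hdac genes. *Hdac11* held most of the Hdac difference, and the other 10 Hdac genes summed to 107.0 and then 92.2 TPM.

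*Kdm7a*, a demethylase of H3 lysines 9 and 27, had the highest ratio of all members. It had 79 counts with AAV-GFP and 517 with AAV-*Wee1-AS*, a log2 ratio of 2.94 (interval 2.63 to 3.33) and an adjusted value of 0.97, and its transcript had the lowest GC content of the members with a ratio above 2, at 39.6%. Next in the Kdm family came *Kdm5a*, an H3 lysine 4 demethylase, with 202 and 945 counts, a log2 ratio of 2.48 (interval 2.27 to 2.72) and an adjusted value of 0.78. It overlaps *Ccdc77*, which had 39 and 170 counts. Its Y-linked paralog *Kdm5d* had counts in both libraries, 148 and 423, with a log2 ratio of 1.76 and an adjusted value of 0.28. *Kdm6a*, which demethylates H3 lysine 27 and is also called UTX, had 146 and 381 counts, a log2 ratio of 1.63 and an adjusted value of 0.19.

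The other demethylases with a ratio above 2 were *Kdm4c*, *Kdm3a* and *Kdm1b*. *Kdm4c* acts on H3 lysines 9 and 36, and its log2 ratio was 1.27, or 0.26 adjusted, from 146 and 296 counts. For *Kdm3a*, an H3 lysine 9 demethylase with known roles in fat metabolism, it was 1.10, or 0.22 adjusted, from 254 and 455 counts. *Kdm1b*, a flavin-dependent H3 lysine 4 demethylase, had 607 and 1056 counts and a log2 ratio of 1.06, but 0.02 adjusted, and it overlaps *Dek*, which had 199 and 883 counts. In all, 7 of 17 Kdm genes (41.2%) had a ratio above 2, against 22.2% of all genes. Their adjusted values lay between 0.02 and 0.97, so none passed 2-fold on that scale, where 6.93% of all genes did. *Kdm8* was lowest in the family, with 171 and 93 counts and a log2 ratio of −0.61, with −0.08 adjusted. *Kdm5c*, the X-linked paralog of *Kdm5d* and the Kdm gene with the highest mean TPM of both libraries (with AAV-*Wee1-AS* alone, *Kdm2a* was ahead at 11.5 against 10.9 TPM), had 3992 and 3142 counts and a log2 ratio of −0.08, with −0.19 adjusted.

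*Hdac11*, the only class IV deacetylase, was the most abundant member with AAV-GFP and 1 of the 2 members whose counting interval lay wholly below a ratio of 0.5. It had 7268 counts with AAV-GFP and 2841 with AAV-*Wee1-AS*, a 2.13-fold lower scaled value, with a log2 ratio of −1.09 and an interval of −1.15 to −1.03. Its transcript has 57.4% GC, and the adjusted value was −0.40, inside the 2-fold limits. *Hdac2*, a class I deacetylase, was the only Hdac gene with a ratio above 2, with 288 and 689 counts, a log2 ratio of 1.51 (interval 1.32 to 1.73) and an adjusted value of 0.38. Its class I partner *Hdac1* had 1259 and 1005 counts and a log2 ratio of −0.06, with 0.05 adjusted. *Hdac3*, the catalytic subunit of the NCoR and SMRT corepressors, had 2441 and 1677 counts, a log2 ratio of −0.28 and, at the 47.1% GC of its longest transcript, an adjusted value of −0.72, but −0.23 at the 50.2% GC of its leading one. Of the 4 class IIa genes, which shuttle between nucleus and cytoplasm, 2 were higher and 2 lower as deposited, and 4 of 4 were lower on the adjusted scale, between −0.53 and −0.20. *Hdac9* of this class rested on 11 and 17 counts.

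**Figure D3:**
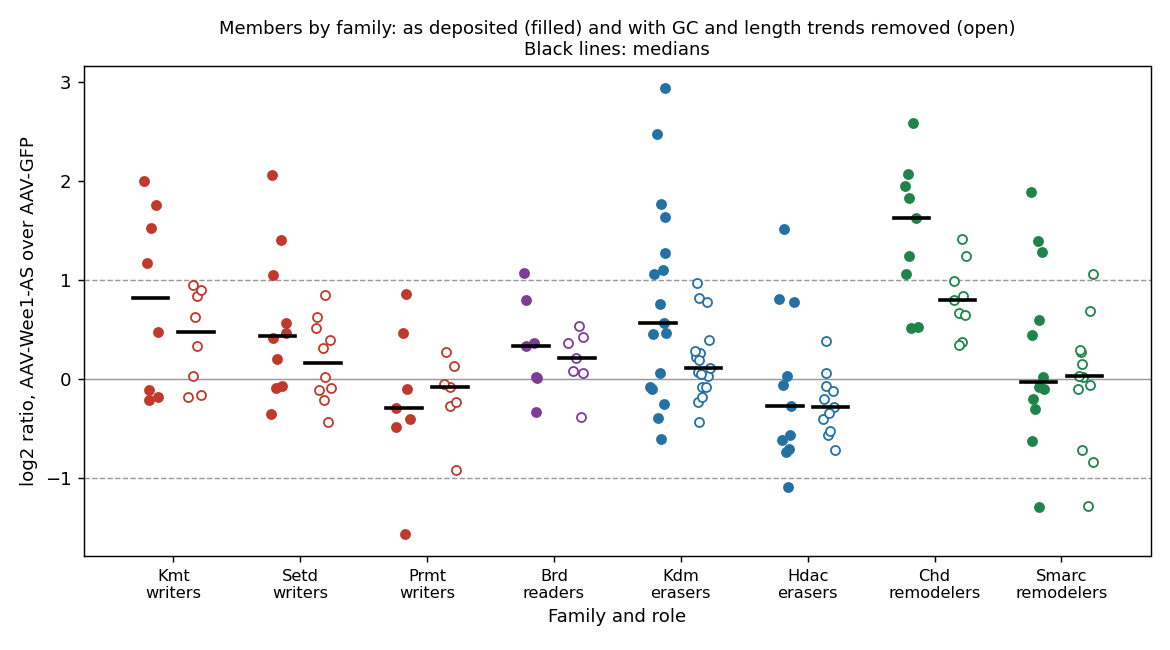
Log2 ratio of AAV-*Wee1-AS* over AAV-GFP of each member past the filter, by family and role, as deposited and scaled (filled) and with trends with GC content and length removed (open), with medians as black lines. The Chd median falls from 1.62 to 0.80 with the adjustment and stays the highest of the 8, and the Hdac median is −0.28 and −0.29.

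Of the 7 readers 6 were higher, with a median of 0.33 and an adjusted median of 0.21, and their summed level was 68.3 and 73.7 TPM. *Brd8*, a subunit of the NuA4/TIP60 acetyltransferase complex, was the only reader with a ratio above 2, with 300 and 527 counts, a log2 ratio of 1.07 and an adjusted value of 0.54. *Brd2*, a BET protein that binds acetylated histone H4 and the most abundant reader, was the lowest, with 4618 and 3043 counts and a log2 ratio of −0.34 (interval −0.40 to −0.27). It overlaps *H2-DMa*, which had 836 and 248 counts. Its transcript has 57.7% GC, and its adjusted value was 0.06.

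Remodelers had the highest median among the 4 roles, 0.59 and 0.34 adjusted. Of 21 past the filter, 15 were higher and 6 lower, 10 had a ratio above 2 (47.6%, against 22.2% of all genes) and 1 a ratio below 0.5 (4.76%, against 8.71%). On the adjusted scale 3 were above 2, against 6.93% of all genes. The summed level was 211 TPM with AAV-GFP and 259 TPM with AAV-*Wee1-AS*. The highest values were in the Chd family, in which 9 of 9 genes past the filter were higher, 7 of them by more than 2-fold (2 on the adjusted scale), with a median of 1.62. In the Smarc family 6 of 12 were higher and 6 lower, with a median of −0.03.

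On the adjusted scale, 9 of 9 Chd genes remained above 0, between 0.34 and 1.42, with a median of 0.80. With GC content and length taken from each gene's leading transcript in place of its longest one, the 9 values lay between 0.32 and 1.44, with a median of 0.77. With the length trend alone removed, 8 of 9 were above 0, and *Chd4* was at −0.24. The summed Chd level was 35.7 TPM with AAV-GFP and 68.5 TPM with AAV-*Wee1-AS*. No spread between mice stands behind this pattern.

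*Chd1*, a remodeler that binds methylated H3 lysine 4 and follows elongating polymerase, had the highest ratio of the family. It had 175 and 882 counts, a log2 ratio of 2.58 (interval 2.36 to 2.84) and an adjusted value of 0.99. *Chd9* had 246 and 867 counts and a log2 ratio of 2.07, with 0.65 adjusted, and its curated transcripts held 0 and 168 of the counts. *Chd7*, the gene mutated in CHARGE syndrome, had 206 and 668 counts, a log2 ratio of 1.95 (interval 1.73 to 2.19) and an adjusted value of 1.42, the highest of all members. At its GC content of 51.4%, in a group where 7.40% of genes had a ratio above 2, it stood far from the trend. *Chd2* had 411 and 1058 counts and a log2 ratio of 1.62, with 0.66 adjusted. *Chd6* had 173 and 516 counts, a log2 ratio of 1.83 and 0.84 adjusted, but 153 and 469 of them sat on a predicted noncoding model, and its curated transcripts held only 13 and 5. *Chd8*, a repressor of beta-catenin targets, had 900 and 1563 counts, a log2 ratio of 1.06 and an adjusted value of 0.34.

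*Chd3* and *Chd4* are the alternative ATPases of the NuRD complex, which joins nucleosome remodeling with deacetylation by HDAC1 and HDAC2. *Chd3* had 1770 and 3489 counts and a log2 ratio of 1.24 (interval 1.16 to 1.33). Its transcript is GC-rich, at 56.1%, in a group where 1.33% of genes had a ratio above 2, and it was the only member of that group to do so, with an adjusted value of 1.24. *Chd4* was the most abundant and the lowest of the Chd genes, with 3261 and 3874 counts and a log2 ratio of 0.51 (interval 0.44 to 0.58), with 0.37 adjusted. The ratio of *Chd3* to *Chd4* in TPM was 0.491 with AAV-GFP and 0.815 with AAV-*Wee1-AS*.

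Within the Smarc family, 3 of 5 ATPases past the filter had a ratio above 2, and 0 of 7 core subunits did, where 22.2% of all genes passed this limit. With so few genes, 0 of 7 does not set the core subunits apart from that share. *Smarca5*, the ISWI ATPase SNF2H, had 382 and 1183 counts and a log2 ratio of 1.89 (interval 1.73 to 2.06), but its transcript has 40.7% GC and the adjusted value was 0.28. *Smarcad1* had 167 and 369 counts and a log2 ratio of 1.40, with an adjusted value of −0.06. *Smarca2*, which encodes the SWI/SNF ATPase BRM, had 2347 and 4762 counts and a log2 ratio of 1.28 (interval 1.21 to 1.36), and at 51.1% GC its adjusted value was 1.06. On its curated transcripts alone the log2 ratio was 0.76. The alternative SWI/SNF ATPase *Smarca4*, or BRG1, had 5044 and 3967 counts, a log2 ratio of −0.08 (interval −0.14 to −0.02) and an adjusted value of 0.02.

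As deposited, the SWI/SNF core subunits had a median of −0.10 and the Smarc ATPases one of 1.28, whereas the adjusted medians were 0.03 and 0.02. *Smarcb1*, the core subunit SNF5, had 1274 and 684 counts and a log2 ratio of −0.63 (interval −0.77 to −0.50), with an adjusted value of −1.28 at its longest and 0.00 at its leading transcript. *Smarcc1* and *Smarcc2* encode the scaffold proteins BAF155 and BAF170, and their log2 ratios were 0.59 and −0.10, from 1066 and 1341 counts and from 6093 and 4726 counts. Their adjusted values were 0.03 and 0.15. *Smarcd2* had the highest level per length in the family, 47.8 and 48.7 TPM, and a log2 ratio of 0.02, but its adjusted value was 0.68, or 0.59 with its leading transcript. Its paralog *Smarcd3*, or BAF60c, had 59 and 19 counts, a log2 ratio of −1.29 with a wide interval of −2.20 to −0.60, and an adjusted value of −0.72. Of the *Smarcd3* counts, 57 and 0 sat on curated transcripts, and the gene overlaps *Chpf2*, which had 1664 and 867 counts. The low counts of *Smarcd3* leave the size of its difference poorly bounded.

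Pairs of paralogs were then compared by their TPM ratio in each library. The BRM to BRG1 ratio (*Smarca2* to *Smarca4*) was 0.510 with AAV-GFP and 1.26 with AAV-*Wee1-AS*, from 12.7 and 24.8 TPM and then 28.8 and 22.8 TPM. The order of these ATPases was thus opposite in the 2 libraries, and the log2 difference between them was 1.37, or 1.04 adjusted. On curated transcripts alone the order was the same in both, with 966 and 1328 counts for *Smarca2* and 3616 and 3099 for *Smarca4*. For the H3 lysine 4 writers, *Kmt2c* to *Kmt2d* was 0.424 and then 1.15, also in opposite order, though each of their counts sat on predicted transcripts. *Kmt2a* to *Kmt2b* was 0.120 and then 0.395, and curated transcripts held 0 and 0 counts of *Kmt2a* and only 7 and 4 of *Kmt2b*. *Hdac1* to *Hdac2* was 4.45 and then 1.48, with *Hdac1* ahead in both libraries. In the Kdm family, *Kdm6a* to *Kdm6b* was 0.154 and then 0.642, and *Kdm5c* to *Kdm5d* was 15.0 and then 4.04. Curated transcripts held 28 and 217 counts of *Kdm6a* and 0 and 173 of *Kdm5d*.

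In those pairs the partner with the higher log2 ratio had the lower GC content, by 4.73 percentage points for *Smarca2* and *Smarca4* and by 17.1 for *Kdm6a* and *Kdm6b*. The adjusted log2 difference of the *Kdm6a* pair was 0.27, against 1.89 as deposited. The pair of *Chd3* and *Chd4* was unlike them, since *Chd3* has 3.15 percentage points more GC, and its log2 difference was 0.73 as deposited and 0.87 adjusted. Smaller shifts of the TPM ratio were seen for *Smarcc1* to *Smarcc2* (0.155 and 0.250), *Hdac4* to *Hdac5* (0.088 and 0.146), *Setd1a* to *Setd1b* (1.14 and 0.956) and *Prmt1* to *Prmt5* (1.15 and 1.32). The partner with the higher log2 ratio also had more GC in the *Setd1a* and *Prmt1* pairs, where it was *Setd1b* and *Prmt1*.

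**Figure D4:**
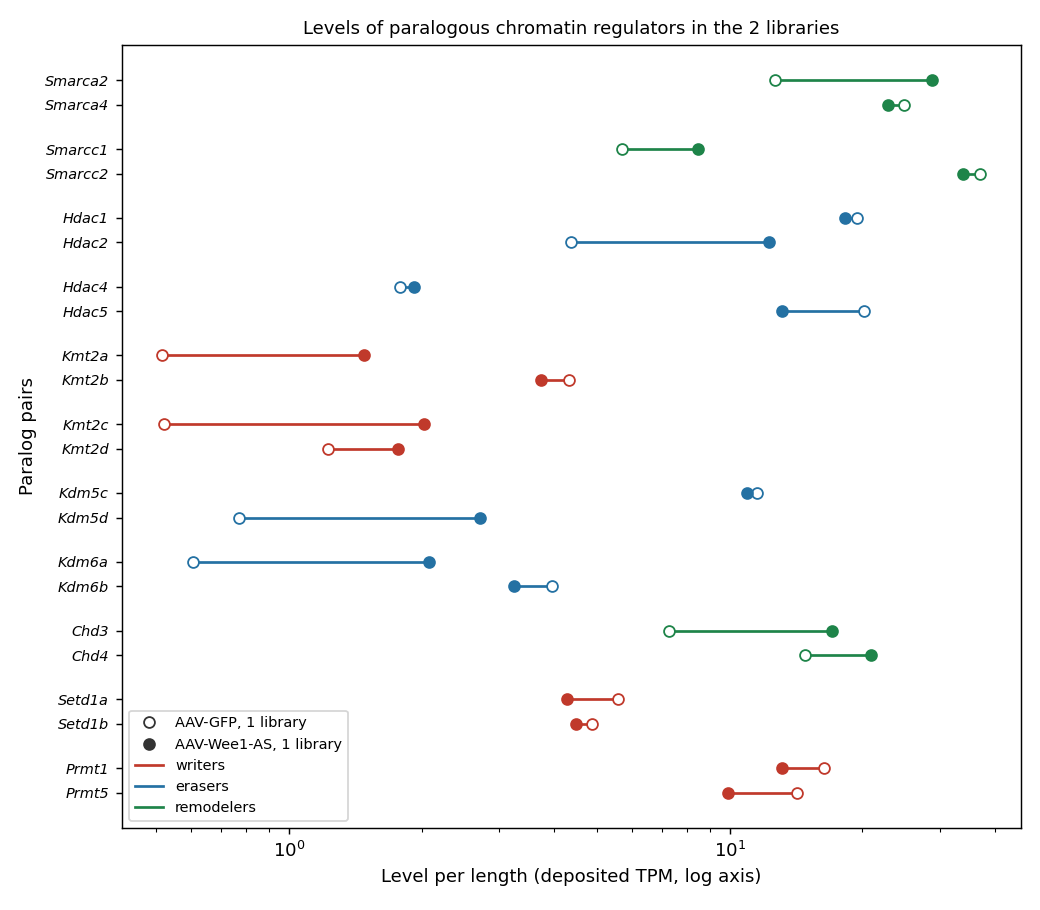
Level per length (deposited TPM, log axis) of 11 paralog pairs in the AAV-GFP library (open points) and the AAV-*Wee1-AS* library (filled points), 1 library each, so that no error bar can be drawn. The order within the pair is opposite in the 2 libraries for *Smarca2* and *Smarca4*, for *Kmt2c* and *Kmt2d*, and for *Setd1a* and *Setd1b*.

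Most members have several annotated transcripts, and the estimated counts were divided among them. The 89 members have 729 transcripts in the table. Of the 76 members with at least 100 counts in both libraries, 55 had the same leading transcript in both and 21 another one, and the median share of counts that sat on other transcripts in the second library was 16.9%. In 16 members this share was over 50%. For *Setd2*, a predicted transcript (XM_006512092) held 73.3% of the counts with AAV-GFP and 0 counts with AAV-*Wee1-AS*, where NM_001081340 held 61.6% (0 and then 636 counts). For *Chd3*, the curated transcript NM_146019 held 11.6% and then 33.7% of the counts, 205 and then 1175. For *Kdm5d*, the noncoding model XR_003953250 held 92.6% and then 16.3%. *Hdac11* kept NM_144919 as its leading transcript, with 4921 and then 1543 counts. *Chd1* has 1 transcript and *Hdac2* 1 that carried nearly all counts, so their ratios do not rest on this division. Transcripts of 1 gene share most of their bases, and how far the division was exact was not tested.

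Promoter sequence was read for the members from RefSeq (GRCm38.p6, the assembly behind mm10), over the 250 bases before each annotated start, and 68 of the 89 members had an entry, with 90 promoters in all. These promoters had a median of 20 CpG dinucleotides and 62.0% GC, against 14 and 58.8% for 14805 promoters of genes past the count filter, and 6 and 52.4% for all 32841 promoters. Members with a ratio above 2 had a median of 20 CpG and 66.0% GC in 25 promoters, which belong to only 19 of these 26 members. Those between the limits had 17.5 CpG in 56 promoters of 42 members, and the 3 with a ratio below 0.5 had 17 CpG. The promoters of those 19 members were thus not poorer in GC than those between the limits, which had 61.2%, although the transcripts of all 26 members were. The following stretches are shown because they belong to the members with the highest and lowest ratio, the BRM and BRG1 pair, and the most abundant member with AAV-GFP. Each runs 5′ to 3′ on the gene's strand and ends before the first start listed for the gene, and capitals mark CpG dinucleotides.
Kdm7a: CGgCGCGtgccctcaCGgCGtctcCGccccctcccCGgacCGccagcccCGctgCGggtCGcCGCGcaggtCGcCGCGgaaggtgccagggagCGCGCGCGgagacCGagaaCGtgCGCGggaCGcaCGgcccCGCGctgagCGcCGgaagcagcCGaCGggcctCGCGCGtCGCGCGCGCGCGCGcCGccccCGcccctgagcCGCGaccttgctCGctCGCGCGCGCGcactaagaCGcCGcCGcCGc
Smarca2: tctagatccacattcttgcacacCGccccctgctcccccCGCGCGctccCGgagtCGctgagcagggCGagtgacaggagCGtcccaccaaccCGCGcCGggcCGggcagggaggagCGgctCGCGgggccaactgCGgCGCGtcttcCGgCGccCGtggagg
Smarca4: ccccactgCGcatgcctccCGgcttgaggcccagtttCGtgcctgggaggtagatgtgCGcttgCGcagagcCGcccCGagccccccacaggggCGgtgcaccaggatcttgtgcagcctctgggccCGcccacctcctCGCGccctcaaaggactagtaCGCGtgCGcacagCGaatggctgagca
Prmt2: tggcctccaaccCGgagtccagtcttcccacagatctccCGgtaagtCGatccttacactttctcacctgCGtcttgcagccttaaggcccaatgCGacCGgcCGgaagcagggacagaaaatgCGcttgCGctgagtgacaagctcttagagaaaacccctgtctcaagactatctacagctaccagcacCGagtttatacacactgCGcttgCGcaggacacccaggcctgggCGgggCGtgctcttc
Hdac11: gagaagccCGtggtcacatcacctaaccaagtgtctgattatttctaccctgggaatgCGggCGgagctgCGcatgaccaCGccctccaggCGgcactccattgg

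The *Kdm7a* stretch lies at chr6:39206774-39207023 on the minus strand and holds 56 CpG in 250 bases with 82.0% GC, and no promoter in the table held more CpG. It precedes a gene whose longest transcript has 39.6% GC. That of *Prmt2*, at chr10:76237866-76238115 on the minus strand, holds 14 CpG with 57.2% GC. The *Smarca2* stretch (chr19:26604910-26605072, plus strand) has 21 CpG in 163 bases, and the *Smarca4* stretch (chr9:21615919-21616105, plus strand) has 15 in 187 bases. The *Hdac11* stretch (chr6:91156565-91156669, plus strand) has 6 in 105 bases. In full windows of 250 bases, *Smarca2*, *Smarca4* and *Hdac11* had 28, 25 and 17 CpG.

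A set of 8 short motifs was searched for on both strands of the 250-base windows. The GC box GGGCGG, bound by SP and KLF factors, was present in 59 of 90 member promoters (65.6%), against 52.8% of promoters of genes past the filter and 32.7% of all promoters. The CCAAT box was present in 34.4%, 35.0% and 33.9% of these, and in 4 of the 25 promoters of members with a ratio above 2. The ETS motif CCGGAAG was found in 13.3% of member promoters and 11.9% of those past the filter, and the NRF1 motif GCATGCGC in 4.44% and 3.75%. TATAAA was found in 5.56% and 7.40%. The YY1 motif AAGATGGC, the CRE motif TGACGTCA and the E2F motif TTCCCGCC were each found in 1 or 2 member promoters. A match in these windows is a description of letters and no evidence of binding.

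Genes that work with the members but bear other names were taken as 7 lists of 99 genes, 98 of them past the filter. In all, 63 were higher and 35 lower, 36 had a ratio above 2 (22.2% of all genes did) and 1 a ratio below 0.5 (8.71% of all genes), with a median of 0.44. On the adjusted scale 6 were above 2 (6.93% of all genes) and 5 below 0.5 (9.0% of all genes), with a median of 0.23. Other bromodomain or remodeler genes were higher in 22 of 23 cases, 16 of them above 2, with a median of 1.26 and 0.31 adjusted. Their highest was the helicase *Hells* with 17 and 107 counts, and their lowest the corepressor *Trim28* with a log2 ratio of −0.54. The adjusted values of *Hells* and *Trim28* were 1.06 and 0.11. Of 10 acetyltransferases 7 were higher, 5 above 2, with a median of 0.93 and 0.55 adjusted. They ran from *Kat2a* at −0.45 (0.15 adjusted) to *Kat6a* at 1.98 (0.96 adjusted).

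Subunits that partner the writers, deacetylases and SWI/SNF ATPases had medians nearer to 0. The counts above 2 that follow are to be read against the 22.2% of all genes past that limit, and the shares of HDAC corepressor and of BAF and PBAF subunits lay close to it. Of 8 core subunits of COMPASS, the complex in which the Kmt2 and Setd1 enzymes work, 3 were higher and 5 lower. As deposited 0 passed 2-fold in either direction, from *Cxxc1* at −0.44 to *Wdr82* at 0.57. The adjusted values were 0.27 for *Cxxc1*, 0.24 for *Wdr82* and −1.19 for *Dpy30*, with a list median of −0.06. Of 20 HDAC corepressor subunits 10 were higher and 4 were above 2, from *Mbd3* at −0.88 to *Tbl1xr1* at 2.31. The adjusted values of *Mbd3* and *Tbl1xr1* were −0.08 and 0.55, and the adjusted median of this list was −0.02. Those of *Rbbp4* and *Sap18* in the same list were −1.17 and −1.09. Of 15 other BAF and PBAF subunits past the filter 10 were higher and 3 were above 2, from *Actb* at −0.76 to *Ss18* at 1.87. Adjusted, *Actb* was at −0.49 and *Ss18* at 0.93, with a list median of 0.09, and *Dpf1* was at 0 counts in both libraries. Of 14 other lysine methyltransferases, 7 were higher and 6 were above 2, from *Smyd5* at −0.76 to *Suv39h2* at 2.84, the latter on 5 and 41 counts. Adjusted, these 2 were at −0.58 and 1.69, with a list median of 0.03. Of 8 demethylases of other names 4 were higher, from *Hr* with 144 and 26 counts (−2.13) to the Y-linked *Uty* with 52 and 322 counts (2.84). The adjusted values of *Hr* and *Uty* were −1.77 and 1.20, with a list median of 0.27.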

How the data were processed

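Poly-A liver RNA, 1 library per group, was sequenced from stranded libraries as 2 reads of 100 bases per fragment. The submitters' processing notes name Trimmomatic 0.38, HISAT2 2.1.0, SAMtools 1.9, StringTie 2.1.3b and the build mm10. The authors deposited 129299 RefSeq transcripts with an estimated count, an FPKM value (fragments per kilobase, scaled to depth) and a TPM value (scaled to 1 sum per library) for each library. The estimated counts deposited are shares assigned to overlapping transcripts, and whether strand was used in assigning them is not given in the sources used here. Replicate libraries were not analysed here.

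Estimated counts were summed per gene symbol and scaled by TMM (edgeR 4.0.16, R 4.3.3), and 2 was added as the prior count before log2 ratios. The filter asked for 10 or more counts in either library. A gene was counted as past the limits at a ratio above 2 or below 0.5. The exact (Clopper-Pearson) 95% interval covers counting error only, and a count of 0 was read as up to 3 counts. Precision is set by each gene's counts, printed with it. TPM was used for levels between genes, for summed levels of groups and marker lists in each library, and as an alternative scale for the ratios. Lowess trends (span 0.3, 5 cycles) with GC content and length of the longest GENCODE M21 transcript were fitted over 14995 genes (94.6% of those kept) and removed. Python 3.11.15, pandas 2.3.3, statsmodels 0.14.6 and matplotlib 3.10.9 were used. The steps were tested on simulated data.

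The members and gene lists were chosen with earlier results of these data known. Named in each family were the members past the limits, the highest, the lowest and the most abundant, members under the filter, and paralog pairs, 11 of which are given. A member and its pair are not reported here by name. In partner lists the highest and lowest were named. *Brd7*, *Hdac3*, *Hdac9*, *Kdm2a*, *Kdm4b*, *Smarcb1*, *Dpy30*, *Rbbp4*, *Sap18*, the cell markers named singly and overlapping genes were named after their values were seen. Other scalings tried were size factors of DESeq2 1.42.0, plain totals and the upper quartile. Further alternatives were other count filters, a prior count of 0.5, FPKM or TPM with a pseudocount of 1, curated transcripts only, and removal of the length trend alone. Use of the leading transcript's GC content and length was added after the data were seen.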

Additional observations from a re-analysis of the deposited data

How the results depend on the processing

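Each result rests on 1 library per group, so the limits are those of counting and of the deposited estimates. With 26 members above a ratio of 2 as reported, the count was 7 with FPKM, 13 with TPM, 13 with the length trend removed, 4 with trends with GC content and length removed, and 3 with the leading transcript used for those trends (*Chd3*, *Chd7* and *Kmt5b*). The shares of all genes above 2 were 6.49%, 10.1%, 18.4%, 6.93% and 5.61% in that order, so that with the length trend removed the members' share, 15.7%, was below that of all genes, whereas it was 31.3% against 22.2% as reported. For the 3 members below 0.5, the counts were 1, 1, 9, 1 and 1 in the same order, and 6 with curated transcripts only, and the shares of all genes 1.94%, 2.76%, 10.1%, 9.0%, 7.61% and 11.1%. With curated transcripts only, 25 members (32.9%, against 22.8% of all genes) were above 2, but *Chd6*, *Kdm1b* and *Smarca2* were lost. Gained were *Brd7*, *Chd4*, *Kdm2a* and *Kdm4b*, the last at −0.40 as reported. Log2 ratios on curated transcripts were also far higher for some members, such as *Kdm3a* (2.89), *Chd8* (2.82), *Chd3* (2.81) and *Setd5* (2.79). The largest were *Setd2* (8.48), *Kmt2e* (8.15), *Kdm5d* (6.61) and *Chd9* (6.57), each with 0 curated counts with AAV-GFP. Far lower were *Smarcd3* (−4.74, on 57 and 0 curated counts) and *Hdac5* (−2.67, on 616 and 77). With the length trend alone removed, the median of all members was −0.012 in place of 0.46 and that of erasers −0.29 in place of 0.26. Among members past the limits, direction changed for *Chd6* with curated transcripts only (−0.86, on 13 and 5 counts), for *Smarcad1* with GC and length trends removed (−0.058, or −0.21 with the leading transcript), and for *Kdm1b* (−0.092) and *Kmt2e* (−0.022) with the leading transcript. Among the other members named by rule, direction changed for 5 with curated transcripts, 4 with the length trend removed, 8 with GC and length trends removed and 6 with the leading transcript. It also changed for *Hdac4* and *Smarcd2*, both close to 0, under each other scaling. Members named after their values were seen are not in these counts. Among them, *Kdm2a* and *Hdac9* turned lower with the length trend removed (−0.49 and −0.12) and with both trends removed (−0.44 and −0.53). With the leading transcript they were at −0.09 and −0.69. With curated transcripts *Hdac9* turned lower and *Kdm4b* higher, and *Kdm4b* was at 0.05 with both trends removed. *Smarcb1* was at 0.00 with the leading transcript. The cause was not tested. Library totals, DESeq2 size factors, the count filters and the prior count left 25 to 27 members above 2. The upper quartile, which moved the median of all genes to −0.22, left 20, without *Brd8*, *Chd8*, *Kdm1b*, *Kdm3a*, *Kmt2e* and *Setd5*. Of the 26, all 26 stayed higher under every scaling, FPKM and TPM, 23 of the 24 that have curated counts (*Kmt2a* and *Kmt2c* have none), and 25 with GC and length trends removed. With the leading transcript, for which 77 members but neither *Kmt2a* nor *Kmt2c* could be matched, 21 of 24 stayed higher. No paired analysis was possible because each group has 1 library and the labels give no replicate numbers.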
